A study of Rattus norvegicus with 15 samples.

Results

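The conjugating enzymes of the UGT, GST, MGST and SULT families were followed through the livers of control rats, rats with cirrhosis and rats with cirrhosis that received eplerenone. Members were the protein coding genes whose symbol begins with Ugt1, Ugt2 or Ugt3, with Gst followed by a class letter (a, k, m, o, p, t or z) and a digit, with Mgst and a digit, or with Sult and a digit. This rule, which uses names and no measured value, found 43 of the 32623 genes in the table, namely 6 UGT, 22 GST, 3 MGST and 12 SULT genes. The members and the lists of related genes were chosen with earlier results of these data known. Of the 43 members 38 passed the filter on low counts and were tested. Ugt3a2 and Gstm6l had no count in any rat, Gstt4 had 1 count in a single rat, and Sult1d1 and Sult6b1 were below the filter. Members that pass such a filter may pass because of the group where they are high.

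All animals were male Wistar rats. Controls received neither CCl4 nor phenobarbital. The cirrhosis group inhaled carbon tetrachloride (CCl4), a hepatotoxin, for 12 weeks and drank water with 0.35 g/L phenobarbital, and the cirrhosis & eplerenone group received in addition the mineralocorticoid receptor antagonist eplerenone at 100 mg/kg by mouth from week 8 to week 12. Phenobarbital, an inducer of drug metabolism that acts through the nuclear receptor CAR, was shared by both CCl4 groups and absent in the controls, so its share in any difference from the controls cannot be told apart from that of CCl4. Livers were collected some days after the last CCl4, and the rats sequenced were, as the study describes, a selection that considered whether cirrhosis induction or eplerenone treatment had succeeded in the animal. RNA-seq counts of 14 livers were analysed (4 control, 5 cirrhosis, 5 cirrhosis & eplerenone). Control replicate 1 was not analysed here.

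Conjugation, the phase II of drug metabolism, makes lipophilic molecules soluble by coupling them to a polar group. UDP-glucuronosyltransferases (UGT) transfer glucuronic acid from UDP-glucuronic acid in the endoplasmic reticulum, glutathione S-transferases (GST) and their membrane bound counterparts (MGST) transfer glutathione to electrophiles such as lipid peroxidation products, and cytosolic sulfotransferases (SULT) transfer sulfate from the donor PAPS to phenols, steroids and bile acids. Hepatocytes carry most of this capacity. GST of the pi class (Gstp1) is low in normal rat hepatocytes, is present in bile duct cells, and is a classical marker of preneoplastic foci in rat liver. Sult1e1 sulfates oestrogens and is higher in male than in female rat liver.

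Before the comparisons, 2 libraries have to be named. On the first principal component of the 500 most variable genes (66.6% of their variance), controls lay between 44.3 and 50.6 and cirrhosis replicates 1 to 4 between -47.7 and -38.0. Cirrhosis replicate 5 lay at 13.03, towards the controls, and cirrhosis & eplerenone replicate 3 lay at -42.6, among the cirrhosis rats. The other 4 eplerenone treated rats were spread from -18.5 to 26.8. Depth was 16157491 to 21574767 counted reads per liver. Levels are given as FPM, counted fragments per 1000000 of the TMM scaled library size, and 3 counts, taken as the floor, stood for 0.121 to 0.191 FPM. FPM is not corrected for transcript length, so levels are compared between rats and not between genes. Hepatocyte markers were abundant in every liver, with a summed level between 193005 and 223956 FPM in the controls, between 147117 and 206103 FPM in the cirrhosis group, and between 115107 and 208922 FPM under eplerenone, and 1 of 12 (Fga) was called lower in cirrhosis. Of the markers tested for other liver cells, 5 of 7 for stellate cells and myofibroblasts, 4 of 7 for lymphocytes and 2 of 8 for macrophages rose in cirrhosis. Among macrophage markers 1 fell, and 1 of 5 endothelial markers rose and 1 fell. In bulk tissue fewer hepatocytes and less RNA per hepatocyte cannot be told apart.

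The sequence before the transcription start is shown for the GST genes with an antioxidant response element core that rose in cirrhosis, and for the SULT genes with the lowest log2FC in cirrhosis, none of which had a match. RefSeq windows of assembly GRCr8 were matched by symbol for 36 of the 43 members (38 windows, since Gsta3 and Gsto2 have 2 each). The 250 bases before each start are printed 5′ to 3′ in the direction of transcription. Capitals mark matches on either strand to the antioxidant response element core TGACNNNGC, bound by NRF2 and related factors, to the xenobiotic response element core GCGTG, bound by the AHR, or to GTTAAT, a core of the HNF1 site. No matches overlapped in the windows shown.
Gsta3, chr9:31154739-31154988, plus strand: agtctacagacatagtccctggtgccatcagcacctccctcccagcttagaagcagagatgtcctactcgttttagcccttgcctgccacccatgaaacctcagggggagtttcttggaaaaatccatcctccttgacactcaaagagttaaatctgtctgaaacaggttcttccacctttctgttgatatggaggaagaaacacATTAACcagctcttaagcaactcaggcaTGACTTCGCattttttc
Gstp1, chr1:210769706-210769955, minus strand: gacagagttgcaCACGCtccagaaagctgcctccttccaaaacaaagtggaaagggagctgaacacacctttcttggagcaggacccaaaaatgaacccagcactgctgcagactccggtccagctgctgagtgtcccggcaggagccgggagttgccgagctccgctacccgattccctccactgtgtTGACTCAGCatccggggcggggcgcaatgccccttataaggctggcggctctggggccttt
Sult1c2a, chr9:7103203-7103452, minus strand: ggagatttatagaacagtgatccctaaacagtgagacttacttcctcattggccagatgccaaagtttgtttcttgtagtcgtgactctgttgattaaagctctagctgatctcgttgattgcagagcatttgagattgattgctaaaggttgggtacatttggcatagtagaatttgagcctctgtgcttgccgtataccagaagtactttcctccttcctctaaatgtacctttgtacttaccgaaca
Sult1c3, chr9:7594257-7594506, minus strand: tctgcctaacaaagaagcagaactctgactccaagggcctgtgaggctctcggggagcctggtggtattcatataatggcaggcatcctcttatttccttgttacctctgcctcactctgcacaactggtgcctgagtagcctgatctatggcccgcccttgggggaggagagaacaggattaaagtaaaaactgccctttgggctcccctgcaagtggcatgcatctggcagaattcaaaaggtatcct
Sult1e1, chr14:20701230-20701479, plus strand: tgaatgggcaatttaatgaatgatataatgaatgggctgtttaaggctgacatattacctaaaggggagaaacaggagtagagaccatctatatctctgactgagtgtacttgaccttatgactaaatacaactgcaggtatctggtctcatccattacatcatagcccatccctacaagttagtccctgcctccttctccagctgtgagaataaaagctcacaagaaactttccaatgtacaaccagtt
The upstream window of Gsta3 had an antioxidant response element core whose first base lay at -17 from the start and an HNF1 core at -45. The other Gsta3 window, at the second annotated start, had a single GCGTG match. Gstp1 had an antioxidant response element core at -61 and a GCGTG match at -238. Among all member windows 5 of 38 (13.2%) had the antioxidant response element core, against 10.1% of all 33469 windows. Besides Gsta3 and Gstp1 these were Gstm5, Gstm7 and Gstz1, not called in cirrhosis (log2FC 0.87, -0.39 and -0.55). Sult5a1, which rose, had no match. Gstm3l, which rose most, and Gstt2, which fell, had no window under their symbols and were not searched. The windows shown were picked by match and direction together, so they show no relation between the core and a rise. GCGTG was found in 9 of 38 (23.7%, all windows 25.9%) and GTTAAT in 3 of 38 (7.89%, all windows 6.45%). The shares of the members thus lay near those of all promoters, and a match is a description of letters, not of binding.

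In cirrhosis against control, 4 conjugation genes rose and 4 fell. The risers were the GSTs Gstm3l, Gsta3 and Gstp1 and the sulfotransferase Sult5a1. Those that fell were the sulfotransferases Sult1c2a and Sult1c3, the steroid glucuronidating Ugt2b15, and Gstt2. A gene was called DEG when its FDR was below 0.05 both in edgeR (quasi-likelihood test, Benjamini-Hochberg) and in DESeq2. The 8 calls were 21.1% of the 38 members tested, where 20.6% of all 13628 protein coding genes were called. By direction, 10.5% of members were higher (all genes 13.8%) and 10.5% lower (all genes 6.72%). The families as a whole therefore changed about as often as other genes. With library sizes set by total counts in place of TMM, 5 members were called higher and 2 lower. Of all protein coding genes called, 89.8% were higher with total counts and 67.3% with TMM. The median log2FC of the members was -0.04, and that of all protein coding genes was -0.01. Total counts moved the median of all genes to 0.28 and that of the members to 0.22.

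**Figure D1:**
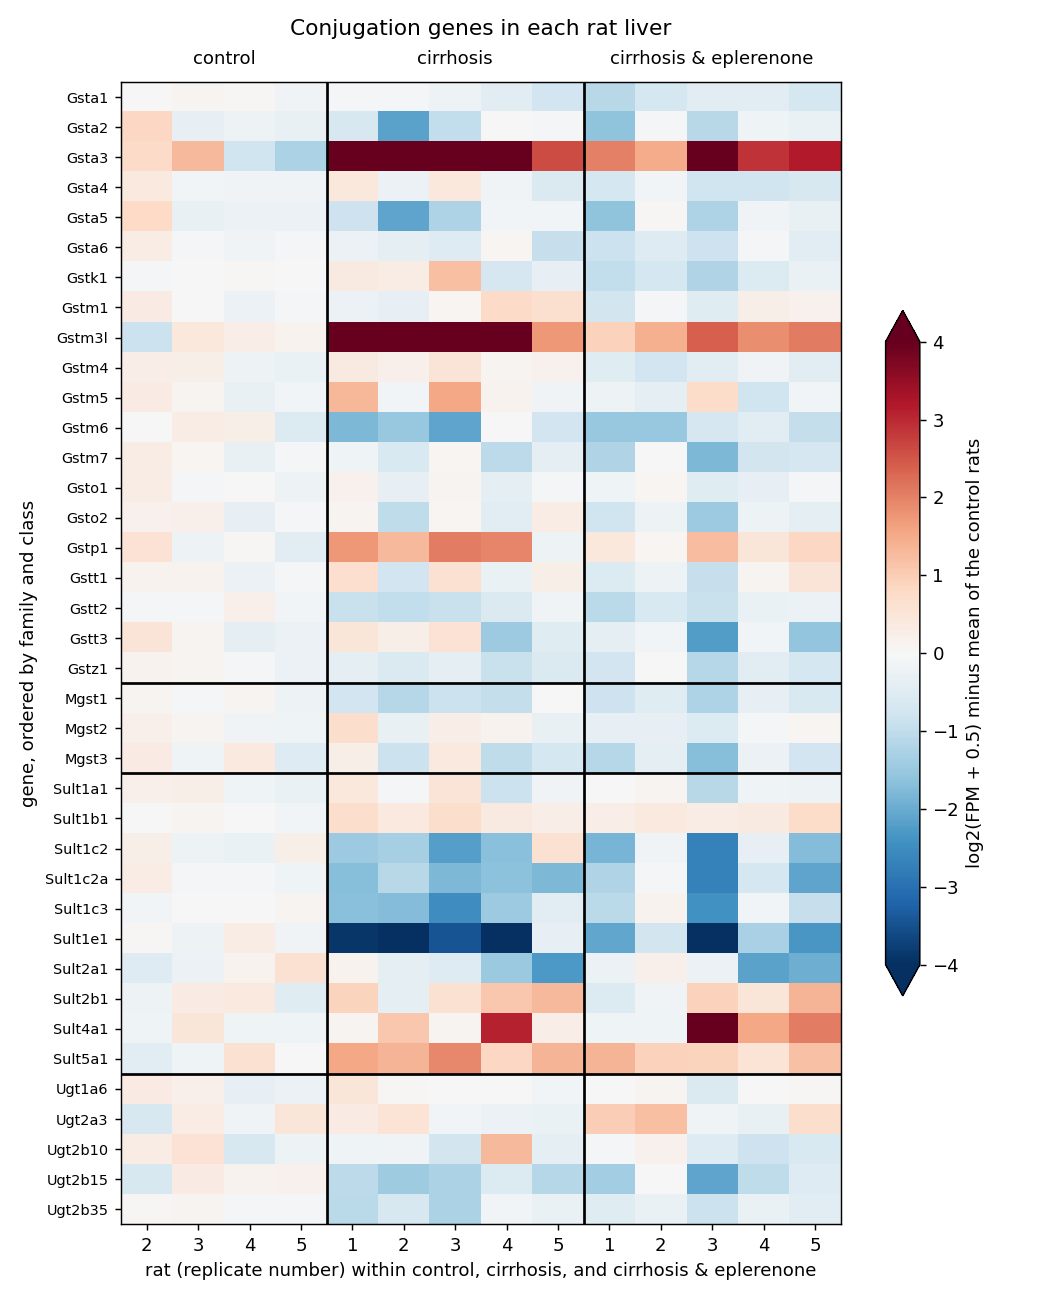
Level of the 38 tested conjugation genes (rows, ordered by family and class) in each of the 14 rat livers (columns, grouped as control, cirrhosis, and cirrhosis & eplerenone, with replicate numbers). Colour is log2(FPM + 0.5) minus the mean of the control rats, cropped at 4 either way. Gsta3 and Gstm3l are deep red in cirrhosis replicates 1 to 4, and Sult1e1 is deep blue in the same rats. In cirrhosis & eplerenone replicate 3 Gsta3 is deep red too, at its highest level of all rats, and Sult1e1 is deep blue. Most other rows stay pale.

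Among the alpha class GSTs, Gsta3 (ENSRNOG00000056847, chromosome 9) stood out. RefSeq lists Yc2 among its synonyms, an enzyme known for conjugating the activated form of aflatoxin B1. Gsta3 was at 7.06, 10.5, 2.08 and 1.34 FPM in the controls, at 105, 100.7, 76.8, 113 and 26.6 FPM in cirrhosis replicates 1 to 5, and at 17.4, 12.0, 125, 32.2 and 39.6 FPM in cirrhosis & eplerenone replicates 1 to 5. Every CCl4 treated rat lay above every control, and the treated groups overlapped. The log2FC was 4.01 ± 0.77 (SE; 16.1-fold) in cirrhosis against control with an FDR of 0.00366 in edgeR. In cirrhosis & eplerenone against control it was 3.11 ± 0.74 with an FDR of 0.0242, and the control rats are the same in both comparisons. The call in cirrhosis held in all 14 fits that left out a rat. The call in cirrhosis & eplerenone was lost without control replicate 2, 4 or 5 or without cirrhosis & eplerenone replicate 3, with log2FC from 2.27 to 3.69 over the 14 fits, and also with limma-voom.

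None of the other alpha class genes was called. Gsta1, the member of the class with the highest mean, was at 2480, 2664, 2532 and 2230 FPM in the controls, at 2329, 2413, 2126, 1841 and 1468 FPM in cirrhosis, and at 1152, 1507, 1814, 1826 and 1522 FPM in cirrhosis & eplerenone. The cirrhosis rats overlapped the controls, while all 5 eplerenone treated rats were below them. Its log2FC against control was -0.28 ± 0.21 in cirrhosis (edgeR FDR 0.328) and -0.66 ± 0.21 in cirrhosis & eplerenone (edgeR FDR 0.0792, DESeq2 FDR 0.00932). Gsta2 and Gsta5 are closely related, reads that map to both were counted at both, and Gsta5 was 1.31 to 1.68 times Gsta2 in the same rat. Their sequences were not compared here, so how many reads they share is unknown. Their log2FC in cirrhosis was -0.66 ± 0.42 and -0.78 ± 0.42, with no call. Gsta4, which conjugates the lipid peroxidation product 4-hydroxynonenal, was at 218 ± 44.5 FPM in control (SD, n = 4) and at 219 ± 65.2 FPM in cirrhosis (SD, n = 5).

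Among the mu class GSTs, Gstm3l (ENSRNOG00000019058, chromosome 2) had the largest log2FC of any member in cirrhosis against control. It was at 1.51, 4.39, 3.85 and 3.498 FPM in the controls, at 58.5, 90.8, 79.7, 106 and 11.6 FPM in cirrhosis and at 6.29, 9.14, 18.6, 12.8 and 14.8 FPM in cirrhosis & eplerenone. Both treated groups lay above the controls, and cirrhosis replicate 5 lay among the eplerenone treated rats rather than near the other cirrhosis rats. The log2FC was 4.39 ± 0.56 in cirrhosis against control (20.9-fold, edgeR FDR 0.000528, called in all 14 leave-one-out fits). In cirrhosis & eplerenone against control it was 1.89 ± 0.51 (3.72-fold, edgeR FDR 0.0436). This call held in 4 of 14 leave-one-out fits, those without cirrhosis replicate 4 or 5 or without cirrhosis & eplerenone replicate 1 or 2, with log2FC from 1.65 to 2.09, and it was absent with limma-voom and with a minimum of 10 counts in every sample. The other mu class genes had no call. Gstm1, highest in mean FPM of the class, was at 1271 ± 224 FPM in control, 1497 ± 519 FPM in cirrhosis and 1154 ± 319 FPM in cirrhosis & eplerenone.

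Gstp1 was at 24.9, 14.1, 16.9 and 11.9 FPM in the controls, at 55.7, 40.9, 69.3, 64.1 and 14.2 FPM in cirrhosis, and at 21.9, 17.1, 38.7, 23.1 and 29.6 FPM in cirrhosis & eplerenone. Cirrhosis replicates 1 to 4 were above every control and every eplerenone treated rat, and cirrhosis replicate 5 was within the control range. The log2FC was 1.53 ± 0.38 in cirrhosis against control (2.88-fold, edgeR FDR 0.0138) and 0.62 ± 0.37 in cirrhosis & eplerenone against control (edgeR FDR 0.377). The call in cirrhosis was lost without control replicate 5, in which Gstp1 was lowest, and log2FC ranged from 1.37 to 1.77 over the 14 fits. Of the 9 cholangiocyte markers 8 were tested, and 7 rose in cirrhosis. Their summed level was 30.7 to 41.6 FPM in control, 70.8 to 167 FPM in cirrhosis and 68.9 to 122 FPM in cirrhosis & eplerenone. The defining marker Krt19 was at 1.76 ± 0.961, 8.48 ± 5.48 and 6.85 ± 4.96 FPM. The part of bile duct cells in the levels of Gstp1, Gsta3 and Gstm3l was not tested.

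**Figure D2:**
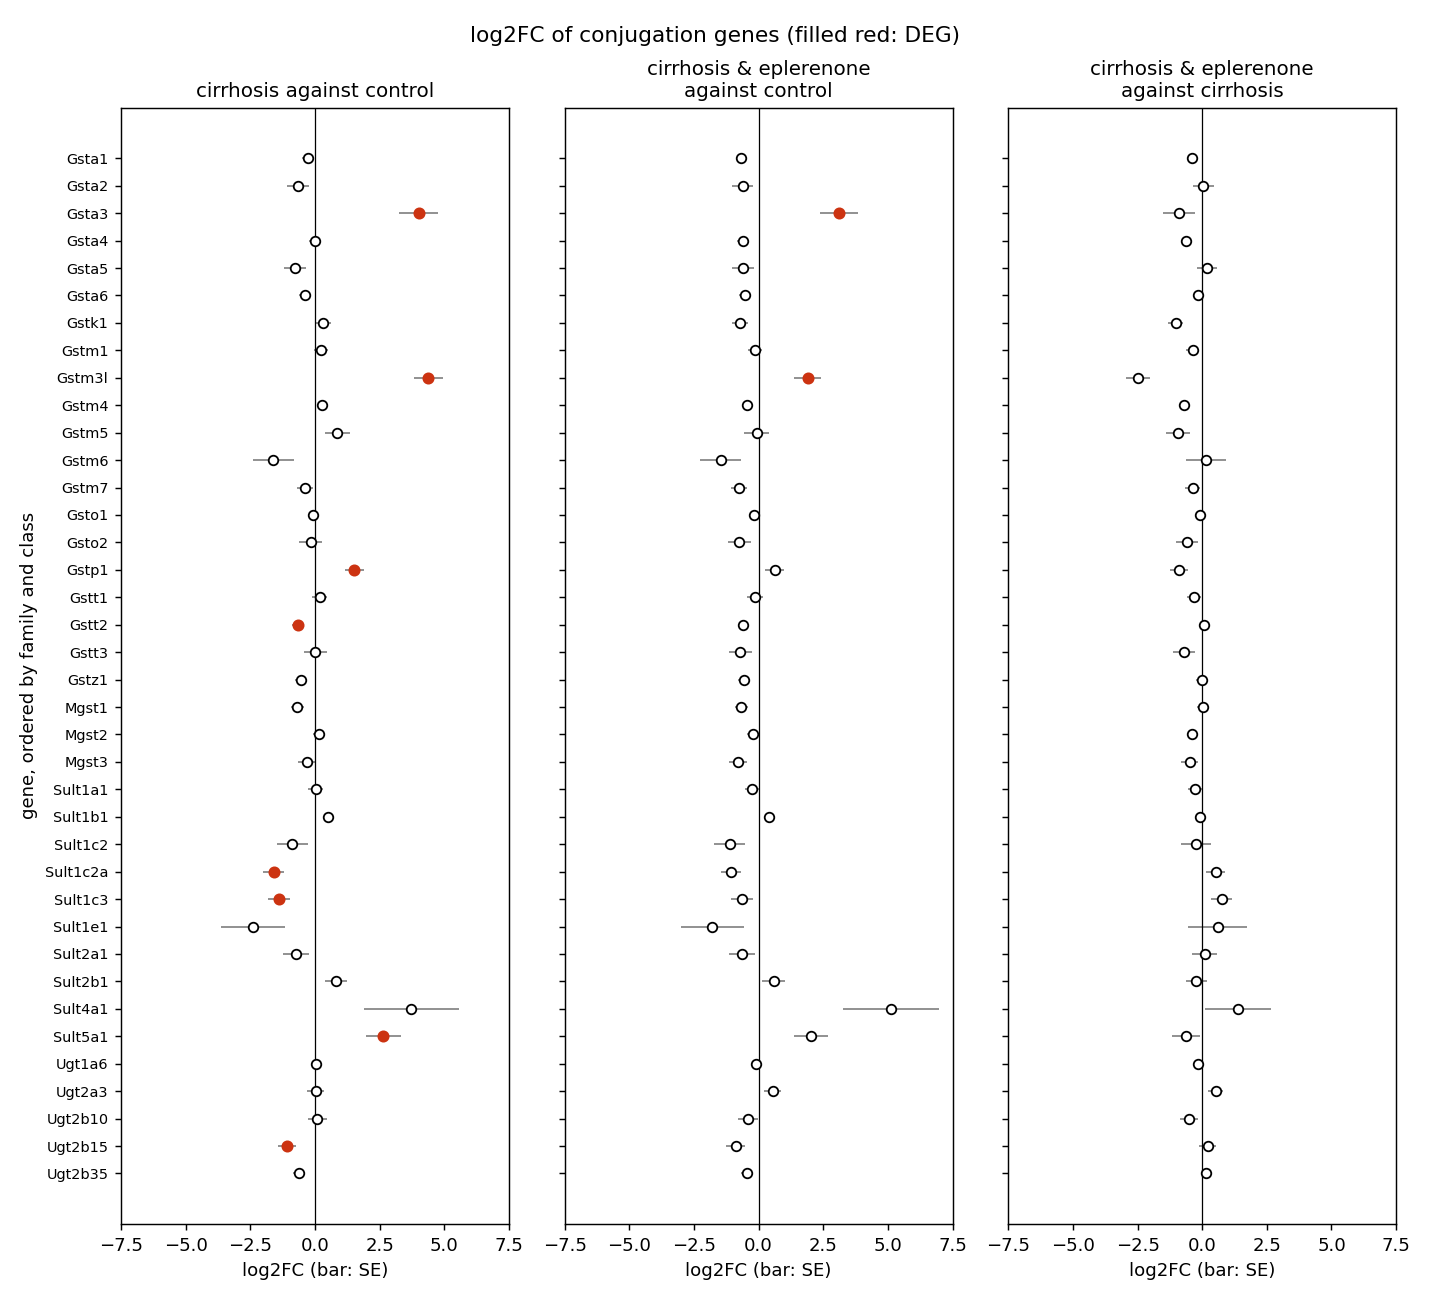
log2FC with its SE (bars) of the 38 tested conjugation genes in each comparison, ordered by family and class, with DEG as filled red points. In cirrhosis against control 8 points are filled, in cirrhosis & eplerenone against control Gsta3 and Gstm3l are, and in cirrhosis & eplerenone against cirrhosis none is.

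The remaining cytosolic GST classes moved less. Gstt2 of the theta class was at 139, 136, 163 and 133 FPM in the controls, at 76.4, 71.04, 75.7, 95.9 and 129 FPM in cirrhosis and at 67.5, 94.1, 75.8, 119 and 120 FPM in cirrhosis & eplerenone. All treated rats were below all controls, cirrhosis replicate 5 by the smallest margin. The log2FC was -0.67 ± 0.21 in cirrhosis (edgeR FDR 0.0396) and -0.58 ± 0.21 in cirrhosis & eplerenone (edgeR FDR 0.131). The call was made in 6 of 14 leave-one-out fits and was lost without any of cirrhosis replicates 1 to 4 or any control replicate, with log2FC from -0.84 to -0.59. It was also lost with total counts, without a filter on low counts and with the replicate block. Gstz1, the maleylacetoacetate isomerase of tyrosine breakdown, was lower in every cirrhosis rat (281 to 408 FPM) than in every control (445 to 578.3 FPM), with a log2FC of -0.55 ± 0.22 that was not called (edgeR FDR 0.0794, DESeq2 FDR 0.0489). It was called without cirrhosis & eplerenone replicate 2. Gsto1 was at 99.6 ± 14.6, 93.6 ± 15.5 and 87.4 ± 13.1 FPM in control, cirrhosis and cirrhosis & eplerenone. Gstt3, highest in mean FPM of the theta class, was at 292 ± 84.4, 292 ± 136 and 179 ± 95.5 FPM.

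None of the 3 microsomal transferases was called in any comparison. Mgst1, which protects membranes of the endoplasmic reticulum and mitochondria against lipid peroxidation, was at 2438, 2160, 2433 and 1956 FPM in the controls, at 1325, 1024, 1234, 1168 and 2192 FPM in cirrhosis, and at 1253, 1586, 946, 1796 and 1453 FPM in cirrhosis & eplerenone. Cirrhosis replicate 5 was at the control level and the other 9 treated rats were below all controls. The log2FC was -0.69 ± 0.25 in cirrhosis (edgeR FDR 0.0601, DESeq2 FDR 0.0205) and -0.68 ± 0.25 in cirrhosis & eplerenone (edgeR FDR 0.134, DESeq2 FDR 0.0427). Without cirrhosis replicate 5 the gene was called in cirrhosis against control, as it was without cirrhosis & eplerenone replicate 3. These fits, which are cited again for members below, called 32.5% and 23.1% of all protein coding genes. With all rats 20.6% were called. Mgst2 and Mgst3 had a log2FC of 0.15 ± 0.21 and -0.32 ± 0.35 in cirrhosis.

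In the SULT1 family the 3 Sult1c genes, neighbours on chromosome 9, were all lower on average in cirrhosis, and 2 of them were called. Sult1c2a was at 219, 170, 170 and 156 FPM in the controls, at 53.7, 82.1, 50.4, 56.5 and 51.1 FPM in cirrhosis and at 76.05, 170, 26.6, 109 and 40.7 FPM in cirrhosis & eplerenone. All 5 cirrhosis rats were below all controls, with replicate 2 the highest of them, while the eplerenone treated rats reached from below the cirrhosis range into the control range. The log2FC was -1.60 ± 0.39 in cirrhosis (0.329 times the control level, edgeR FDR 0.0127, called in all 14 leave-one-out fits) and -1.08 ± 0.39 in cirrhosis & eplerenone (edgeR FDR 0.125).

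Sult1c3, known to sulfate N-hydroxyarylamines (RefSeq synonym HAST-I), was at 412, 437, 444 and 481 FPM in the controls, at 139, 133, 79.3, 163 and 330 FPM in cirrhosis, and at 209, 484, 82.3, 413 and 236 FPM in cirrhosis & eplerenone. Cirrhosis rats did not reach the controls, and 2 of the eplerenone treated rats did. The log2FC was -1.39 ± 0.43 in cirrhosis (0.381 times control, edgeR FDR 0.0358) and -0.64 ± 0.43 in cirrhosis & eplerenone (edgeR FDR 0.449). The call was made in 6 of 14 leave-one-out fits and lost without any of cirrhosis replicates 1 to 4 or any control replicate, with log2FC from -1.79 to -1.21. Sult1c2 was at 16.8 ± 3.18 FPM in the controls (SD, n = 4) and at 3.24 to 6.24 FPM in cirrhosis replicates 1 to 4, but it was at 25.8 FPM in replicate 5, and its log2FC of -0.88 ± 0.59 was not called. Without that rat it was -1.74 and was called.

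Sult1e1 varied widely among the treated rats. The controls were at 2910, 2483, 3462 and 2596 FPM, cirrhosis replicates 1 to 5 at 189, 7.47, 259, 10.6 and 2262 FPM, and cirrhosis & eplerenone replicates 1 to 5 at 678, 1713, 17.0, 1154 and 570 FPM. Every treated rat was below every control, cirrhosis replicate 5 lay just under them, and cirrhosis & eplerenone replicate 3 was as low as the lowest cirrhosis rats. With this spread the log2FC of -2.39 ± 1.25 in cirrhosis (edgeR FDR 0.172) and of -1.79 ± 1.23 in cirrhosis & eplerenone (edgeR FDR 0.458) was not called. Without cirrhosis replicate 5 the log2FC in cirrhosis was -4.62 and the gene was called, in the fit that called 32.5% of all protein coding genes.

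Sult1b1, a sulfotransferase for phenols and thyroid hormone, had its rats on the other side. It was at 364 to 425 FPM in the controls, 467 to 635 FPM in cirrhosis and 468 to 649 FPM in cirrhosis & eplerenone, with no overlap between controls and treated rats. The log2FC of 0.49 ± 0.17 in cirrhosis missed the call in edgeR (FDR 0.0565) and passed in DESeq2 (FDR 0.00425), and the gene was called without cirrhosis replicate 5 or without cirrhosis & eplerenone replicate 3. The phenol sulfotransferase Sult1a1 was at 635 ± 112, 647 ± 223 and 539 ± 148 FPM. Sult1d1 had 39 counts over the 4 controls, 1 count over the 5 cirrhosis rats and 0 over the 5 eplerenone treated rats. It was below the filter, and without the filter it was called lower in both treated groups.

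In the other SULT families a call was made for Sult5a1 at a very low level. It was at 0, 0.12, 0.55 and 0.19 FPM in the controls, at 1.498, 1.26, 2.10, 0.72 and 1.25 FPM in cirrhosis and at 1.28, 0.81, 0.77, 0.51 and 1.04 FPM in cirrhosis & eplerenone. Cirrhosis rats did not overlap the controls, and the group totals were 14, 132 and 85 counts. The log2FC was 2.64 ± 0.67 in cirrhosis (edgeR FDR 0.0146) and 2.01 ± 0.66 in cirrhosis & eplerenone (edgeR FDR 0.0924). The call in cirrhosis was lost without control replicate 3, with log2FC from 2.23 to 3.66 over the 14 fits, and also with the replicate block and with a minimum of 10 counts in every sample. Sult2a1, the hydroxysteroid and bile acid sulfotransferase, was at 1204, 1461, 1903 and 2635 FPM in the controls, at 1899, 1308, 1196, 616 and 353 FPM in cirrhosis and at 1450, 1980, 1472, 393 and 446 FPM in cirrhosis & eplerenone. Its groups overlapped and its log2FC of -0.75 ± 0.51 in cirrhosis was not called (edgeR FDR 0.292).

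Sult4a1, a brain enriched member, was at 0, 0.29, 0 and 0 FPM in the controls, at 0.11, 0.69, 0.11, 4.26 and 0.18 FPM in cirrhosis and at 0, 0, 11.1, 1.13 and 1.80 FPM in cirrhosis & eplerenone. A single rat carried the level in each treated group, and no call was made.

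Of the 5 UGT genes tested, Ugt2b15 (chromosome 14) was called. It was at 1714, 3359, 2960 and 3019 FPM in the controls, at 1301, 991, 1118, 1826 and 1223 FPM in cirrhosis and at 1022, 2631, 624, 1310 and 1858 FPM in cirrhosis & eplerenone. Cirrhosis replicate 4 lay above control replicate 2, and the other cirrhosis rats were below all controls. The log2FC was -1.097 ± 0.35 in cirrhosis (0.468 times control, edgeR FDR 0.0402) and -0.89 ± 0.35 in cirrhosis & eplerenone (edgeR FDR 0.157). The call was made in 7 of 14 leave-one-out fits and lost without cirrhosis replicate 1, 2 or 3, control replicate 3, 4 or 5, or cirrhosis & eplerenone replicate 4, with log2FC from -1.27 to -0.99. Total counts, no filter on low counts and the replicate block ended it too. Its neighbour Ugt2b35 was at 684 to 790 FPM in the controls and below them in every treated rat (301 to 673 FPM in cirrhosis, 406 to 606 FPM in cirrhosis & eplerenone), with a log2FC of -0.61 ± 0.23 in cirrhosis that was not called (edgeR FDR 0.0751, DESeq2 FDR 0.0429). It was called without cirrhosis replicate 4 or 5. Ugt1a6, which glucuronidates planar phenols and shares its 3′ exons with other UGT1A enzymes, was at 490 ± 108, 510 ± 88.9 and 457 ± 75.8 FPM. Sult1e1, Sult1d1, Sult1b1, Ugt2a3, Ugt2b15, Ugt2b35 and Ugt2b10 follow each other in a cluster on chromosome 14. Within it Sult1b1 was higher, and Sult1e1 and Ugt2b35 lower, in every treated rat than in every control, with none of them called. Ugt2a3, next to Sult1b1, and Ugt2b10 had a log2FC of 0.03 and 0.10 in cirrhosis.

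**Figure D3:**
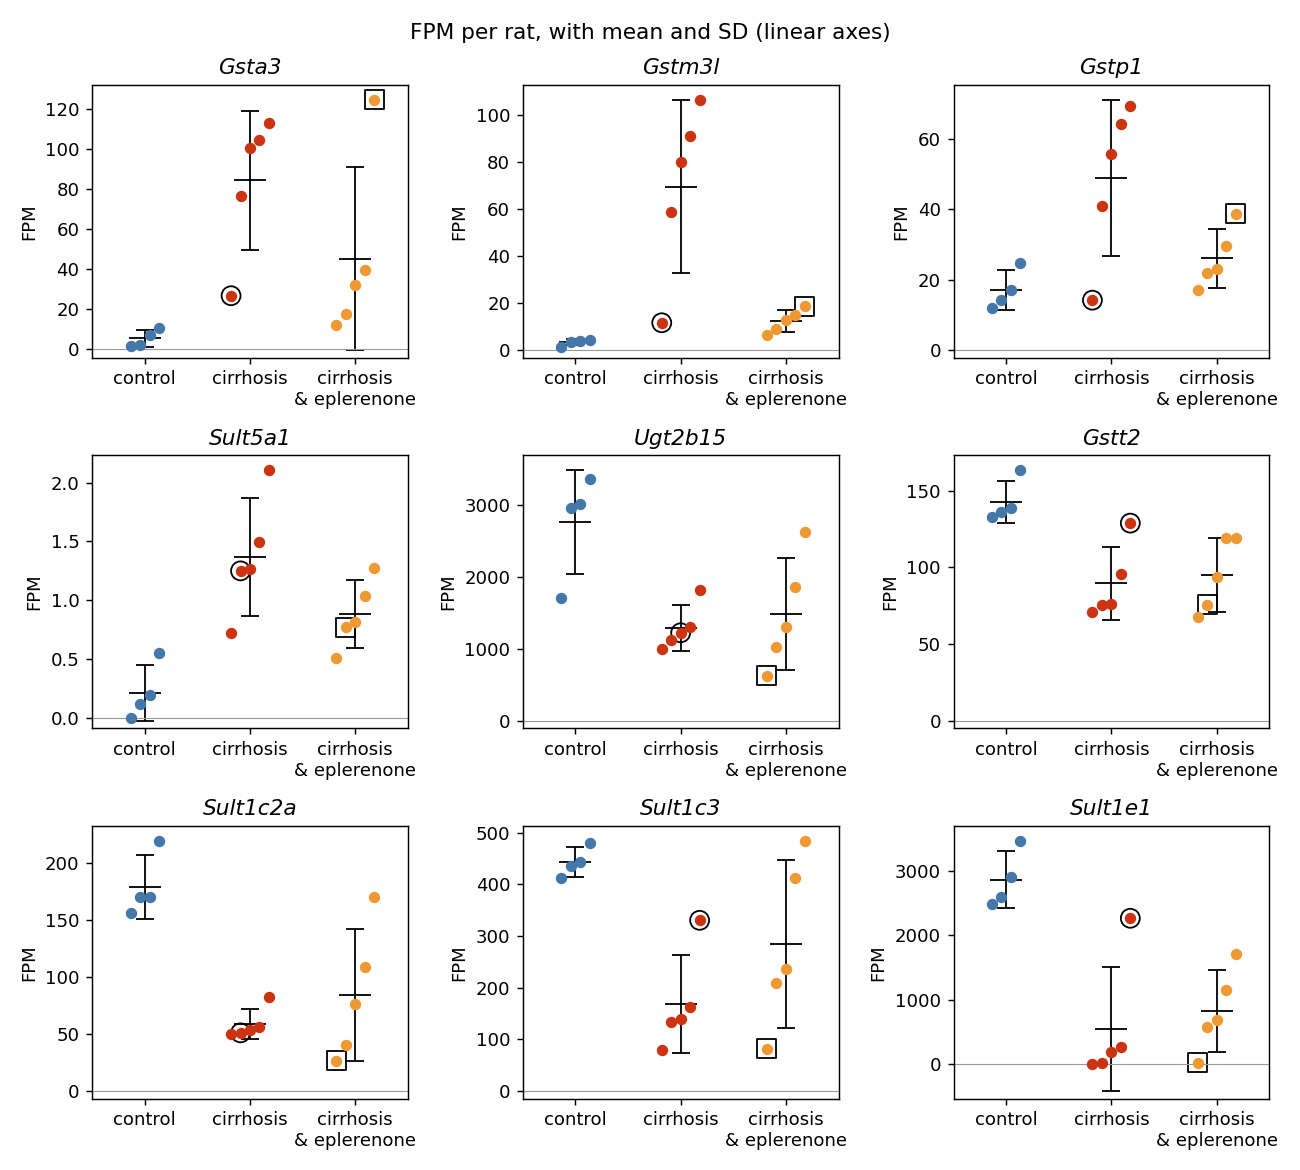
FPM (linear axes) of the 8 DEG of cirrhosis against control and of Sult1e1 in every rat, with group mean and SD (bars); the circle marks cirrhosis replicate 5 and the square cirrhosis & eplerenone replicate 3. For Gstm3l the circled rat is at 11.6 FPM among the eplerenone treated rats, and for Sult1e1 it is at 2262 FPM, next to the controls, with the squared rat at 17.0 FPM.

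Summed over a family, reads of UGT genes were at 4234 ± 714 FPM in control, 2544 ± 521 FPM in cirrhosis and 2740 ± 965 FPM in cirrhosis & eplerenone. SULT sums were 6334 ± 615, 3063 ± 937 and 3422 ± 1279 FPM, and the treated rats (1712 to 4068 and 2392 to 5558 FPM) did not reach the controls (5736 to 6942 FPM). GST sums were 8938 ± 1556, 7586 ± 653 and 6130 ± 1472 FPM, and MGST sums were 2579 ± 309, 1679 ± 456 and 1619 ± 386 FPM. Each sum is led by its most abundant genes, and reads that map to more than 1 gene were counted at each. In the order of the groups above, mean FPM was 2863, 545 and 826 for Sult1e1 and 1801, 1074 and 1148 for Sult2a1. It was 2763, 1292 and 1489 for Ugt2b15 and 2247, 1388 and 1407 for Mgst1. Of these genes only Ugt2b15 was called. In cirrhosis the GST, MGST and UGT sums overlapped the controls. Under eplerenone the UGT sums overlapped them too. The highest GST and MGST sums under eplerenone (7571 and 2081 FPM) lay below the lowest controls (7887 and 2196 FPM).

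In cirrhosis & eplerenone against control, Gsta3 and Gstm3l rose and no member fell. The 2 calls were 5.26% of the members, where 5.33% of all protein coding genes were called (4.5% higher, 0.829% lower). No member was called lower by edgeR, where 12 were lower at an unadjusted p below 0.05, and DESeq2 alone called Gsta1 and Mgst1 lower. The shares of all genes at these thresholds were not counted, so these counts cannot be set against other genes. Without cirrhosis & eplerenone replicate 2, 4 members were called lower, namely Gstm7, Gstz1, Sult1c2a and Ugt2b15, in a fit that called 9.09% of all genes in either direction. The median log2FC of the members was -0.56, and that of all genes was 0.01. A negative log2FC was seen for 30 of 38 members (78.9%), compared with 49.3% of all genes. The 12 hepatocyte markers had a median of -0.45 in the same comparison, and their part in the shift of the members was not tested. By family the medians were -0.58 for GST, -0.68 for MGST, -0.44 for SULT and -0.40 for UGT. Scaling by total counts moved the median of all genes to 0.32 and that of the members to -0.27, and 23 of 38 members were below 0 since Gstm1, Gstm5, Gsto1, Gstt1, Mgst2, Sult1a1 and Ugt1a6 changed sign. The groups did not overlap, with every eplerenone treated rat below every control, for 6 members (15.8%), compared with 4.39% of all genes. They were Gsta1, Gstk1, Gstt2, Mgst1, Sult1e1 and Ugt2b35.

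Of the 8 members called in cirrhosis, 7 had an absolute log2FC of at least 1 (cirrhosis sensitive), all but Gstt2. Gstp1, Sult1c3 and Ugt2b15 were not called and had an absolute log2FC of at most 1 in cirrhosis & eplerenone against control, and so were eplerenone sensitive by the definition of the study. These 3 of 7 (42.9%) compare with 32.9% of the 2024 cirrhosis sensitive protein coding genes. Both figures for all genes come from the fit made here. The study itself reports more cirrhosis sensitive genes and a larger eplerenone sensitive share, and the reason was not tested. Both parts of the definition use the same control rats. The remaining 4 (Gsta3, Gstm3l, Sult1c2a and Sult5a1) had log2FC of 3.11, 1.89, -1.08 and 2.01 in cirrhosis & eplerenone against control.

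In the direct comparison of cirrhosis & eplerenone with cirrhosis no member was called. Among all genes 0.0147% were called. Of the members 5 had an unadjusted p below 0.05 in edgeR (13.2%, all with lower levels under eplerenone, where 7.62% of all genes were lower at this p). DESeq2 alone called Gstm3l and Gstm4, and its share of all genes was not counted. Gstm3l had a log2FC of -2.49 ± 0.46 (0.178 times the cirrhosis level, edgeR FDR 0.28, DESeq2 FDR 8.92e-05) and was called when cirrhosis replicate 5 was left out. Gstm4 was at 113, 102, 126, 94.98 and 99.6 FPM in cirrhosis and at 62.8, 51.5, 66.0, 80.2 and 66.1 FPM in cirrhosis & eplerenone. It was the 1 member whose treated groups did not overlap, with every eplerenone treated rat lower (2.63% of members). In this direction 0.528% of all genes did not overlap. Its log2FC was -0.71 ± 0.16 (edgeR FDR 0.312, DESeq2 FDR 0.0101). Gstk1, a GST of mitochondria and peroxisomes, was at 295, 283, 538, 146 and 184 FPM in cirrhosis and at 116, 142, 101.2, 157 and 191 FPM in cirrhosis & eplerenone, with controls at 223 to 238 FPM. Cirrhosis replicates 1 to 3 were above all controls and the other treated rats below them. Its log2FC was -1.03 ± 0.29 (edgeR FDR 0.312). Gstp1 (-0.90 ± 0.35) and Gsta4 (-0.61 ± 0.22) completed the 5.

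Gstm5 was at 5.44, 1.67, 6.31, 2.10 and 1.61 FPM in cirrhosis and at 1.53, 1.31, 3.44, 0.85 and 1.69 FPM in cirrhosis & eplerenone. Its log2FC was -0.94 ± 0.46. The highest positive differences were those of Sult4a1 (1.39 ± 1.28), Sult1c3 (0.75 ± 0.41), Sult1e1 (0.60 ± 1.15) and Sult1c2a (0.52 ± 0.37), none of which passed an unadjusted p of 0.05. The Sult4a1 value rests on cirrhosis & eplerenone replicate 3, and without that rat it was -0.57. The median log2FC was -0.38 for GST, -0.38 for MGST, 0.01 for SULT and 0.16 for UGT, against 0.01 for all genes.

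The direct comparison depended on the 2 libraries named at the start. Without cirrhosis replicate 5 and cirrhosis & eplerenone replicate 3 together, Gstm3l (-2.98), Gsta3 (-1.98), Gstm5 (-1.54), Gstp1 (-1.34), Gstk1 (-1.08) and Gstm4 (-0.76) were called lower and Sult1e1 (3.12) and Sult1c3 (1.37) higher under eplerenone, where 9.22% of all genes were called. Since each of these rats lay nearer to the other group over the whole profile, leaving them out widens the difference between the groups by construction. No member was called without cirrhosis & eplerenone replicate 3 alone. In cirrhosis against control the same exclusion gave 5 members called higher and 8 lower, where 34.6% of all genes were called, and added Sult1b1, Mgst1, Sult1c2, Sult1e1 and Ugt2b35.

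**Figure D4:**
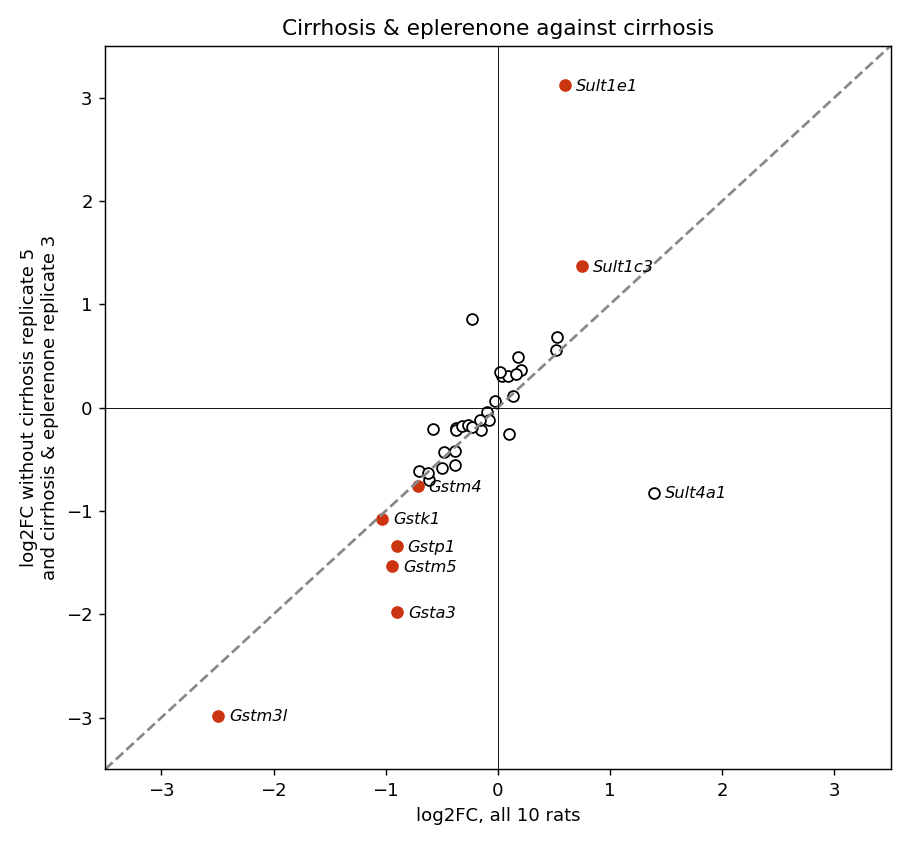
log2FC of tested conjugation genes in cirrhosis & eplerenone against cirrhosis with all 10 rats (horizontal axis) and without cirrhosis replicate 5 and cirrhosis & eplerenone replicate 3 (vertical axis), with genes called in the latter fit in red and the dashed line marking equal values. Sult1e1 moves from 0.60 to 3.12 and Gsta3 from -0.90 to -1.98, and Sult4a1 changes sign.

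The genes around the conjugating enzymes were taken from lists of cofactor supply, conjugate processing and regulators. Of the 12 regulators 6 were called lower in cirrhosis, where 6.72% of all genes were, and 0 in cirrhosis & eplerenone, where 0.829% of all genes were. The median log2FC of the regulators was -0.83 and -0.25, and that of the 12 hepatocyte markers -0.48 and -0.45, and their part in these values was not tested. The 6 were the xenobiotic receptors Nr1i3 (CAR, -1.51 ± 0.37), Nr1i2 (PXR, -0.82 ± 0.20) and Ahr (-0.92 ± 0.29), together with Ppara (-2.03 ± 0.45), Hnf4a (-0.81 ± 0.24) and Maf (-0.85 ± 0.23). NRF2 itself (Nfe2l2) and its inhibitor Keap1 were not called, with a log2FC of -0.14 and -0.09. No regulator was called in cirrhosis & eplerenone against cirrhosis.

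Of 5 genes that supply or clear the sulfate donor PAPS, 2 fell and 1 rose in cirrhosis. Papss2, the PAPS synthase of liver, was at 158 ± 13.9 FPM in the controls, at 75.2 ± 13.4 FPM in cirrhosis and at 82.9 ± 26.3 FPM in cirrhosis & eplerenone, and its paralogue Papss1 was at 3.29 ± 0.358, 7.96 ± 2.30 and 8.09 ± 1.96 FPM. Both were called in both treated groups, with a log2FC of -1.07 and 1.28 in cirrhosis. Bpnt1, which clears the by-product PAP, fell in cirrhosis (-0.98 ± 0.27). The 4 genes of UDP-glucuronic acid supply had no call, with Ugdh at 140, 78.1 and 105 FPM on average. Of 8 genes of glutathione synthesis and recycling, glutathione synthetase (Gss) rose in cirrhosis (0.96 ± 0.29) and 7 were not called.

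Of 8 genes that process or hydrolyse conjugates 3 rose in cirrhosis. Ggt1, which removes the glutamyl group from glutathione conjugates, was at 0.0636 to 2.54 FPM in control, 1.43 to 34.7 FPM in cirrhosis and 1.02 to 10.9 FPM in cirrhosis & eplerenone, with a log2FC of 4.22 ± 0.99 in cirrhosis. The dipeptidase Dpep1, which acts next on these conjugates, had a log2FC of 3.40 ± 0.54 in cirrhosis and 2.54 ± 0.52 in cirrhosis & eplerenone, and was called in both. The lysosomal sulfatase Arsb rose by 0.53 ± 0.17 in cirrhosis.

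Reference targets of the receptors were read in the same way. None of 6 tested NRF2 targets was called in either treated group against control, with Nqo1 at 17.9 to 26.9 FPM in control, 6.67 to 83.9 FPM in cirrhosis and 5.19 to 38.8 FPM in cirrhosis & eplerenone. Of 6 CAR targets, Aldh1a1 rose in both treated groups (1.95 and 1.52). Cyp2b1, the classical phenobarbital induced gene, was at 1.40 to 5.07 FPM in control, 14.4 to 1067 FPM in cirrhosis and 19.2 to 737 FPM in cirrhosis & eplerenone, above the controls in every treated rat, and was not called by both tools (edgeR FDR 0.0223 in cirrhosis). Of 5 tested AHR targets, Cyp1a2 fell in cirrhosis (-2.42 ± 0.75).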

How the data were processed

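The authors prepared poly(A) RNA from rat liver, mapped reads to rn6 with HISAT2 2.1.0 and counted exon reads per gene with featureCounts, with multi-mapping reads counted at each place. Strand use was not given in the sources used here. The deposited table holds raw counts without normalization. All 14 columns were assigned to rats by their labels. Genes were filtered with filterByExpr (smallest count 10), scaled by TMM and fitted in 1 model of the 3 groups with edgeR 4.0.16 (quasi-likelihood test) and DESeq2 1.42.0 in R 4.3.3. The Benjamini-Hochberg adjustment ran over the 14417 genes that passed the filter, and DEG had an FDR below 0.05 in both. P-values measure the spread between these rats. The fit was tested on simulated counts.

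Members and lists were chosen with earlier results of these data known. Values of every rat are given for up to 8 risers and 8 fallers among DEG with a mean of at least 1 FPM in a group, for the 4 highest and 4 lowest log2FC under eplerenone and for abundant members of each class; further members were added after their values were seen. Promoter windows came from RefSeq (GRCr8), matched by symbol. Alternatives changed the tool, scaling, filter, samples and model terms. Label prefixes of the treated rats (15 and 20) have no stated meaning, and the controls carry others, so prefix and group cannot be told apart against control.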

Additional observations from a re-analysis of the deposited data

Results flagged for a closer look

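For the 20 members whose values the naming rule asks for, 60 groups of 4 or 5 rats were searched for a rat far from the rest of its group. By Dixon's test at 95%, 9 had one. Its chance rate of about 1 in 20 groups holds for normal values. FPM need not be normal, so the 9 are a list and not an excess over chance. In cirrhosis replicate 5, Sult1e1 was at 2262 FPM (nearest cirrhosis rat 259) and Mgst1 at 2192 FPM (nearest 1325). In cirrhosis & eplerenone replicate 3, Gsta3 was at 125 FPM (nearest 39.6), Sult4a1 at 11.1 FPM (nearest 1.80) and Ugt1a6 at 324 FPM (nearest 476). In cirrhosis replicate 4 Sult4a1 was at 4.26 FPM (nearest 0.69), in cirrhosis replicate 2 Sult1c2a was at 82.1 FPM (nearest 56.5), and in cirrhosis replicate 1 Ugt1a6 was at 666 FPM (nearest 494). In control replicate 3 Sult4a1 was at 0.289 FPM, with the other controls at 0, so that this rat would be flagged at any level above 0. Of the 9, 5 fell in the 2 libraries that stood apart in the overall profile.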

How the results depend on the processing

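Of 656 values of 27 single-member results under the alternatives, 588 kept their direction and their call or lack of one, 50 lost the call, 15 gained it and 3 changed direction. These 3 were the Sult4a1 difference between the treated groups, at -0.82 without the 2 libraries that stood apart, -0.57 without cirrhosis & eplerenone replicate 3 (3.32 without cirrhosis replicate 4) and -0.27 with the label prefix as a term. Only a DEG can lose its call. The values that belong to DEG were not counted apart, so the 50 losses cannot be read as a share of all 656. Members called in cirrhosis against control numbered 4 higher and 4 lower. The lower count was 7 with DESeq2 alone, 2 with total counts and 8 without the 2 libraries, where 34.6% of all genes were called. For DESeq2 alone, total counts, limma-voom, the other filters and the replicate block the share of all genes called was not counted. Their counts of members, here and below, therefore cannot be set against other genes. Leaving out a rat gave 3 to 5 higher and 1 to 8 lower, in fits that called 9.48% to 32.5% of all protein coding genes. The lowest share was that without control replicate 5 and the highest that without cirrhosis replicate 5. The same fits called 1.5% to 9.09% in cirrhosis & eplerenone against control and 0 to 0.184% between the treated groups. In cirrhosis & eplerenone against control, the 2 higher members became 4 with DESeq2 alone and 4 with total counts, 1 with at least 10 counts in every sample and 0 with limma-voom, and 0 to 2 when a rat was left out. No lower member became 2 with DESeq2 alone, 1 without a filter and 1 without the 2 libraries, and 0 to 4 when a rat was left out (4 without cirrhosis & eplerenone replicate 2). Between the treated groups, 0 calls became 2 lower with DESeq2 alone, 2 higher and 6 lower without the 2 libraries, and 0 to 1 lower when a rat was left out. Cirrhosis sensitive members ranged from 4 to 9 and eplerenone sensitive members from 0 to 4 when a rat was left out, and the latter were 5 without the 2 libraries. The median log2FC of the members in cirrhosis & eplerenone against control was -0.27 with total counts, which moved all genes with it. Except for the scaling of total counts, the cause was not tested.

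Of 13 same-numbered pairs of rats 3 had correlated deviations above 0.1 (range -0.333 to 0.187). The median was -0.0732, and 0.01 for differently numbered pairs. The labels do not say whether the numbers pair the rats, and these correlations cannot settle it. With the replicate block, 3 members were called higher and 2 lower in cirrhosis against control, 1 higher in cirrhosis & eplerenone against control and 0 between the treated groups. A fit without members of near-identical protein was not run, since no protein table was used here. At this depth, differences in members below about 1 FPM rest on few counts.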

Other observations

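Among the 10 treated rats the label prefix (15 or 20) was itself tested with the eplerenone term kept, a test chosen after seeing the data. None of the 38 members passed an FDR of 0.05 in edgeR, and 0.0684% of protein coding genes passed. An unadjusted p below 0.05 was seen for 9 members, and the share of all genes at this p was not counted. The bile acid sulfotransferase Sult2a1 was at 1196 to 1980 FPM (median 1450) in the 5 rats of prefix 15 and at 353 to 1472 FPM (median 446) in the 5 of prefix 20, a log2FC of -1.36 ± 0.41 (edgeR FDR 0.441). Gstt3 was at 218 to 426 FPM and 60.1 to 260 FPM (-1.07 ± 0.39, edgeR FDR 0.69). Sult1a1 and Ugt2a3 were also among the 9 and lower in prefix 20. The rest of the 9 were higher there, namely Gstm6 (2.47), Sult4a1 (4.36), Sult2b1 (1.11), Gstm1 (0.61) and Gstt2 (0.49). The difference made by eplerenone was also compared between the prefixes by an interaction term, with no member passing (edgeR FDR at least 0.38). For Gstk1 the log2FC of eplerenone was -1.55 in prefix 15 and -0.12 in prefix 20, and for Gsta3 it was -2.70 and -0.08, both with an edgeR FDR of 0.385 for the interaction. Cirrhosis replicate 5 and cirrhosis & eplerenone replicate 3, the libraries that stood apart, both carry prefix 20, with Gsta3 at 26.6 and 125 FPM. Prefix and these rats therefore cannot be told apart in the values of prefix 20. Ugt2b10 had the lowest p (0.0155, edgeR FDR 0.38) and went the other way, at 0.35 and -1.33.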
